A study of Mus with 18 samples.

Results

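The comparison described here set 3 libraries from LPS-treated cultured cells against 3 control libraries, 6 of the 18 RNA-seq libraries in the study. The cells were labelled as wild-type mouse C2C12 myoblasts, a line grown from skeletal muscle. The control cultures received saline as vehicle by the labels (the study's methods name ethanol), and the LPS cultures received lipopolysaccharide at 1 μg/mL. The libraries were taken after 24 h, by the study's methods. The other 12 libraries hold cells given LPS with the isothiocyanate MIC-1 and mouse muscle, and they enter no result below except where named. A gene was tested where its mean over the 6 libraries exceeded 1 FPKM, that is, fragments scaled by transcript length and library size, which left 9965 of 21401 genes. Fold changes are differences of mean log2(FPKM + 0.1), LPS-treated minus control, with their standard error (SE), and they understate changes in genes that lie near 0 in either group. A gene was called upregulated or downregulated where the adjusted p-value of limma was under 0.001 and the log2 fold change was beyond 1. Levels are means ± SD over 3 libraries unless single values are given, and nothing in the labels says that the libraries of a group came from separate cultures.

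The label of the cells did not match their RNA in either group. Of 23 macrophage markers in the table, 19 had a mean over 1 FPKM in control and 19 in LPS-treated cells, with a median of 243 to 249 FPKM in the control libraries and 237 to 241 FPKM in the LPS-treated ones. Mrc1 and C1qa stayed under 1 FPKM in each of the 6 libraries, and Marco was at or near 0. The 15 myogenic markers summed to 0.812 to 3.46 FPKM in control and 1.98 to 4.85 FPKM in LPS-treated libraries, against 1101 FPKM or more in each LPS-MIC-1 library, and Myod1, Myf5, Myog and Pax7 were at or near 0 in both groups. Among the markers of 8 other cell types, neutrophil genes summed to 1.96 to 2.30 FPKM in control and 11.8 to 14.6 FPKM in LPS-treated libraries, and T and NK cell genes to 2.5 to 3.02 and 10.1 to 10.4 FPKM. The first difference came mostly from S100a8, with S100a9 and Ltf at 0, and the second from the kinase gene Lck, with Cd3e, Cd3g, Ncr1 and Klrb1c at 0. Fibroblast genes summed to 2.48 to 2.67 and 2.96 to 5.67 FPKM, and B cell genes, at 70.0 to 73.5 and 78.6 to 81.8 FPKM, came almost wholly from the adaptor gene Blnk. The dendritic, mast cell, endothelial and epithelial lists summed to under 1.26 FPKM in each of the 6 libraries. The part of these traces in the results was not tested. In such bulk libraries, fewer cells of a type and less RNA per cell cannot be told apart. The libraries are therefore described as macrophage-like, which is what their RNA resembled.

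LPS, a lipid of the outer membrane of Gram-negative bacteria, is carried by CD14 to the receptor pair of TLR4 and MD-2. The receptor signals through the adaptor MyD88, which leads to NF-kB and the MAP kinases, and through TRIF, which leads to IRF3, type I interferon and the genes that interferon induces. Macrophages are the classic cell for this response, which includes cytokine release, nitric oxide and prostaglandin synthesis, a change in fuel use, and feedback proteins that limit the signal.

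LPS-treated and control cells differed widely. Of the genes tested, 1335 (13.4%) were upregulated and 1264 (12.7%) downregulated, and 26.1% were called in either direction. All of these genes had non-overlapping groups, which alone was common: the 3 LPS-treated libraries lay above all 3 controls in 41.0% of tested genes and below them in 43.0%. The upregulated genes made up 7.48% of all FPKM in control cells and 34.9% in LPS-treated cells, and the downregulated genes 15.4% and 4.38%. Increases reached further than decreases. Of the upregulated genes 249 exceeded a log2 fold change of 3, and 6 of the downregulated genes fell below -3. The median over all tested genes was -0.02. Within groups the libraries correlated at r = 0.982 to 0.983 (control) and 0.978 to 0.980 (LPS) across genes, and between groups at 0.811 to 0.817, and genes are not independent replicates. Each library held an estimated 18342755 to 18857725 reads. The estimates were slightly higher in every LPS-treated library, but the closest were 18666933 in a control and 18707642 in an LPS-treated library. The error of these estimates was not tested. The 10 most abundant genes took 8.86% to 8.95% of FPKM in control and 19.5% to 20.1% in LPS-treated libraries.

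**Figure D1:**
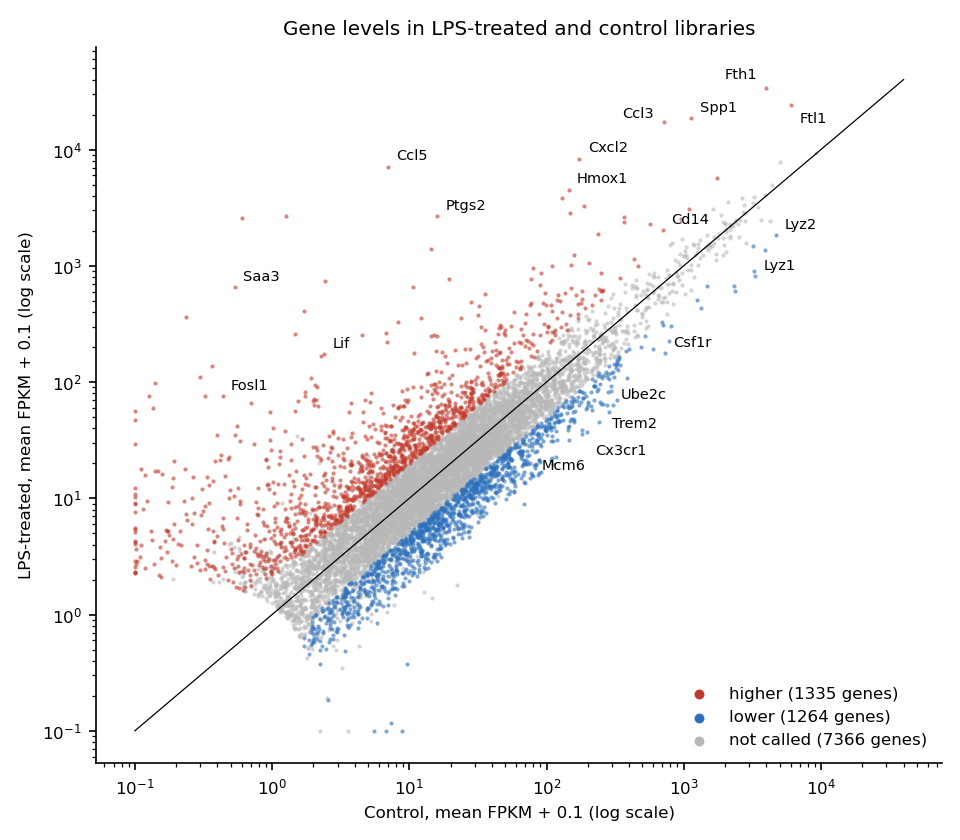
Mean FPKM + 0.1 of each tested gene in the 3 control libraries (horizontal, log scale) and the 3 LPS-treated libraries (vertical, log scale), with upregulated genes in red and downregulated genes in blue and equality as the diagonal. The 1335 upregulated genes spread far above the diagonal, while nearly all of the 1264 downregulated genes lie in a narrow band beneath it.

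Genes were then grouped in 37 lists by what they do. The share of a list that was called can be read against 13.4% upregulated and 12.7% downregulated over all genes. It was highest upward in cytokines, chemokines and interferon-stimulated genes, and highest downward in mitosis, DNA replication and DNA repair. A gene near 0 in control could pass the filter on the mean only through the LPS-treated libraries. The cytokine gene Il33 did so, with a mean of 0.0277 FPKM in control and 75.6 FPKM with LPS. The upward shares of lists with such genes therefore follow in part from the filter, and how far was not tested. Adding the 3 LPS-MIC-1 libraries to the fit took the call from 40 of the 338 genes named by rule, without changing their fold changes. Some of the 338 were never called and had no call to lose. Ccl3, Cxcl2, Spp1, Irg1, Irf7, Clec4e and Cd36 were among those that lost it upward, and Csf1r, Lyz2, Ly86 and Clec12a among those that lost it downward.

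**Figure D2:**
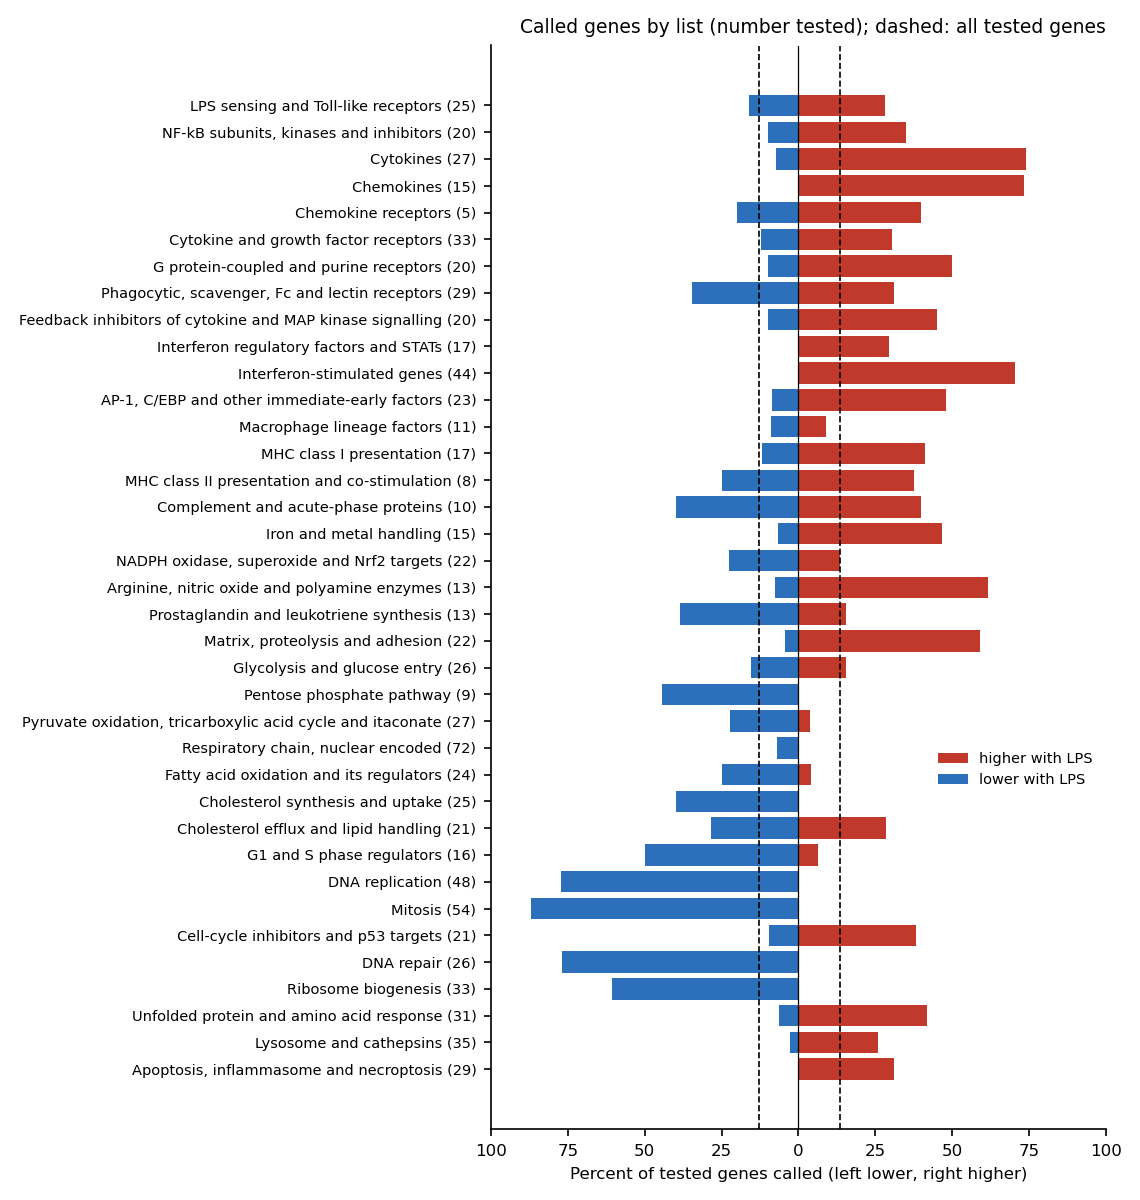
Percent of the tested genes in each of the 37 lists that were upregulated (red, to the right) or downregulated (blue, to the left), with the number tested in brackets and dashed lines at the shares over all tested genes (13.4% and 12.7%). The mitosis, DNA replication, DNA repair and ribosome biogenesis lists have no upregulated gene, and the chemokine, interferon-stimulated and apoptosis lists have no downregulated gene.

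The sensing apparatus held genes called in both directions. Of 25 tested genes on LPS sensing and Toll-like receptors 7 (28%) were upregulated and 4 (16%) downregulated, with a median of -0.45. Over all genes the shares were 13.4% and 12.7%, so the downregulated share was close to that over all genes. Tlr4, the receptor itself, measured 13.4, 13.2 and 14.003 FPKM in the control libraries and 9.42, 9.33 and 9.20 FPKM in the LPS-treated ones. The groups did not overlap, but the log2 fold change of -0.53 ± 0.042 was not beyond 1. Its LPS-carrying partner Cd14 measured 705, 709 and 700.0 FPKM in control and 2029, 2078 and 2013 FPKM with LPS (1.53 ± 0.022, adjusted p = 7.19e-09). Ly96, which encodes the MD-2 subunit that binds LPS, measured 13.3, 18.4 and 15.2 FPKM in control and 30.1, 35.8 and 33.2 FPKM with LPS (1.08 ± 0.12). Its call rested on a value close to the threshold, since leaving out control replicate 1 brought the fold change to 0.97. Cd180 and Ly86 encode a second receptor pair related to TLR4 and MD-2. Ly86 measured 270.4, 291 and 267 FPKM in control and 61.8, 65.9 and 61.5 FPKM with LPS (-2.13 ± 0.044, adjusted p = 2.67e-08), so that the control libraries lay far above the LPS-treated ones, while Cd180 went from 50.5 ± 3.59 to 32.4 ± 0.270 FPKM and was not called.

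Among the other receptors of the family, Tlr2, which reads bacterial lipopeptides, fell from 85.6 ± 1.74 to 35.3 ± 0.947 FPKM (-1.28 ± 0.031). The endosomal receptors Tlr7 (-1.26 ± 0.064) and Tlr13 (-1.19 ± 0.036), which read microbial RNA, fell by similar amounts. Tlr9 (-0.89), Tlr1 (-0.74) and Tlr6 (0.78) were not called, nor was Unc93b1, the chaperone of the endosomal receptors, at 319 ± 0.362 and 225 ± 2.45 FPKM. Adaptors of the pathway were not called alike. Ticam1, which encodes the adaptor TRIF, rose from 14.7 ± 0.258 to 78.1 ± 3.28 FPKM (2.40 ± 0.039), whereas Myd88 stood at 60.5 ± 0.855 and 40.5 ± 0.793 FPKM and was not called. The other adaptors Tirap (0.79) and Ticam2 (0.12) were not called. Of the kinases downstream of MyD88, Irak2 rose to 121 ± 0.602 from 16.8 ± 0.899 FPKM (2.84 ± 0.042). Irak3, an inhibitory member of that kinase family, rose by 1.65 ± 0.054. Irak1 (-0.93) and Irak4 (-0.86) were not called, and neither were Map3k7 (-0.45), Tab1 (-0.20) and Tab2 (0.06). Traf6, the ubiquitin ligase that follows the IRAK kinases, rose by 1.34 ± 0.11, and Tollip, an inhibitor of the pathway, by 1.25 ± 0.054.

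In the NF-kB list 7 of 20 tested genes were upregulated and 2 downregulated (median 0.69), and those upregulated were mostly inhibitors or subunits of the alternative pathway. Nfkbiz, a nuclear IkB protein that some secondary response genes need, measured 13.97, 13.5 and 13.4 FPKM in control and 122, 121 and 116 FPKM with LPS (3.13 ± 0.033, adjusted p = 2.33e-09). Nfkbia, the classic cytoplasmic inhibitor, rose from 87.4 ± 2.75 to 388 ± 8.32 FPKM. The deubiquitinase gene Tnfaip3 (A20) rose by 3.29 ± 0.073, its partner Tnip1 by 1.51 ± 0.057, and the nuclear IkB protein Bcl3 by 2.14 ± 0.046. Nfkb2 (1.90 ± 0.035) and Relb (1.05 ± 0.058), the subunits of the alternative pathway, were upregulated, the latter only just, with 0.98 at a pseudocount of 1. Rela (0.37), Nfkb1 (0.37) and Rel (0.93) of the canonical pathway were not called, although every LPS-treated library lay above every control, as in 41.0% of all tested genes. Nfkbid (-1.44 ± 0.056) and Tnip3 (-1.51 ± 0.064) fell, whereas their relatives Nfkbiz, Nfkbia, Bcl3 and Tnip1 rose. The kinase genes Chuk (0.20), Ikbkb (-0.46), Ikbkg (0.64), Ikbke (0.68) and Tbk1 (0.70) were not called, and the same held for Cyld (0.28), Tnip2 (0.88) and Nfkbie (0.28).

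Secreted ligands showed the largest changes. Of 27 tested cytokine genes 20 were upregulated and 2 downregulated (median 2.88). Il1a, the alarmin form of interleukin-1, measured 0.251, 0.249 and 0.300 FPKM in control and 137, 139 and 132 FPKM with LPS (8.54 ± 0.07, adjusted p = 1.00e-09). Il33, another member of the interleukin-1 family, measured 0, 0 and 0.0830 FPKM in control and 74.6, 76.3 and 76.0 FPKM with LPS (9.27 ± 0.24), so it was almost unread in control cells. Il1rn, the secreted antagonist of the interleukin-1 receptor, is named after its values were seen and was far more abundant than either, at 13.5, 14.4 and 15.2 FPKM in control and 1374, 1410.5 and 1396 FPKM with LPS (6.59 ± 0.043). Il1a and Il1rn, ligand and antagonist of the same receptor, both rose. Lif, a cytokine of the interleukin-6 family and likewise named after the fact, measured 2.24, 2.35 and 2.29 FPKM in control and 173, 174 and 172 FPKM with LPS (6.18 ± 0.033). Some genes chosen here after their values were seen, because they are familiar anti-inflammatory or growth signals, rose less: Il10 to 3.54 ± 0.387 FPKM (2.88 ± 0.19), Vegfa to 90.4 ± 1.55 FPKM (2.52 ± 0.031) and Osm to 153 ± 3.61 FPKM (2.03 ± 0.029). Igf1, a growth factor made by many tissue macrophages, fell from 8.09 ± 0.846 to 2.26 ± 0.162 FPKM (-1.79 ± 0.10). Tgfb1, at 191 ± 1.44 and 225 ± 9.399 FPKM, and Tnfsf9 (0.91) were the most abundant cytokines that were not called.

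Chemokines, which draw leukocytes to a site, were upregulated in 11 of 15 tested genes and downregulated in none (median 3.57). Ccl5, a ligand for T cells and monocytes, went from 5.07, 6.28 and 9.34 FPKM in the control libraries to 7072, 7189 and 7156 FPKM in the LPS-treated ones (10.04 ± 0.20, adjusted p = 2.29e-08). Cxcl2, which attracts neutrophils, measured 174, 171 and 176 FPKM in control and 8374, 8322 and 8405 FPKM with LPS (5.59 ± 0.021). Its relative Cxcl3 was nearly unread in control, at 0, 0 and 0.118 FPKM, and reached 97.7, 100.005 and 97.4 FPKM. The gene with the highest chemokine level in either group was Ccl3, at 722 ± 3.65 FPKM in control and 17304 ± 574 FPKM with LPS, a 24.0-fold increase. Ccl7 rose by 5.43 ± 0.12. Ccl9, at 131 ± 0.949 and 214 ± 8.32 FPKM, and Cxcl16 (0.61) were not called. Single chemokine genes lie in clusters of close relatives, and reads could have been shared between them.

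Receptors for these ligands were less uniform. Only 5 chemokine receptor genes could be tested, and 2 were upregulated and 1 downregulated. Cx3cr1, the fractalkine receptor typical of resident macrophages and microglia, measured 201, 199 and 190.3 FPKM in control and 37.5, 37.8 and 36.4 FPKM with LPS (-2.40 ± 0.031, adjusted p = 4.80e-09). Ccr1, a receptor of Ccl3 and Ccl5, rose from 1.02 ± 0.0458 to 19.6 ± 0.247 FPKM (4.14 ± 0.063), and Ccrl2, an atypical receptor, by 1.66 ± 0.062. Cxcr4 (-2.20 ± 0.88) and Cxcr3 (-1.26 ± 0.21) were low in both groups and were not called.

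Of 33 tested cytokine and growth factor receptors 10 were upregulated and 4 downregulated (median 0.32). Csf1r, the receptor for the main survival factor of macrophages, measured 733, 734 and 705 FPKM in control and 184, 176 and 172 FPKM with LPS (-2.03 ± 0.032, adjusted p = 9.67e-09), so that control cells held 4.08 times as much of the transcript. Tnfrsf1b, the second TNF receptor, moved the other way, measuring 27.9, 28.1 and 27.8 FPKM in control and 495, 491 and 476 FPKM with LPS (4.12 ± 0.024), while Tnfrsf1a, the first, was not called (-0.14; chosen after its value was seen). Tnfrsf9 (4-1BB) rose by 4.93 ± 0.079, Cd40 by 3.79 ± 0.083 and Fas by 3.41 ± 0.14. The interleukin-6 receptor Il6ra measured 14.6, 20.4 and 14.3 FPKM in control and 3.11, 4.90 and 1.68 FPKM with LPS (-2.41 ± 0.36). Its libraries were uneven within each group, and its call was lost when LPS replicate 1 or any control replicate was left out (adjusted p of limma 0.00249 to 0.00294). Ifnar2, a chain of the type I interferon receptor, was not called (0.42).

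**Figure D3:**
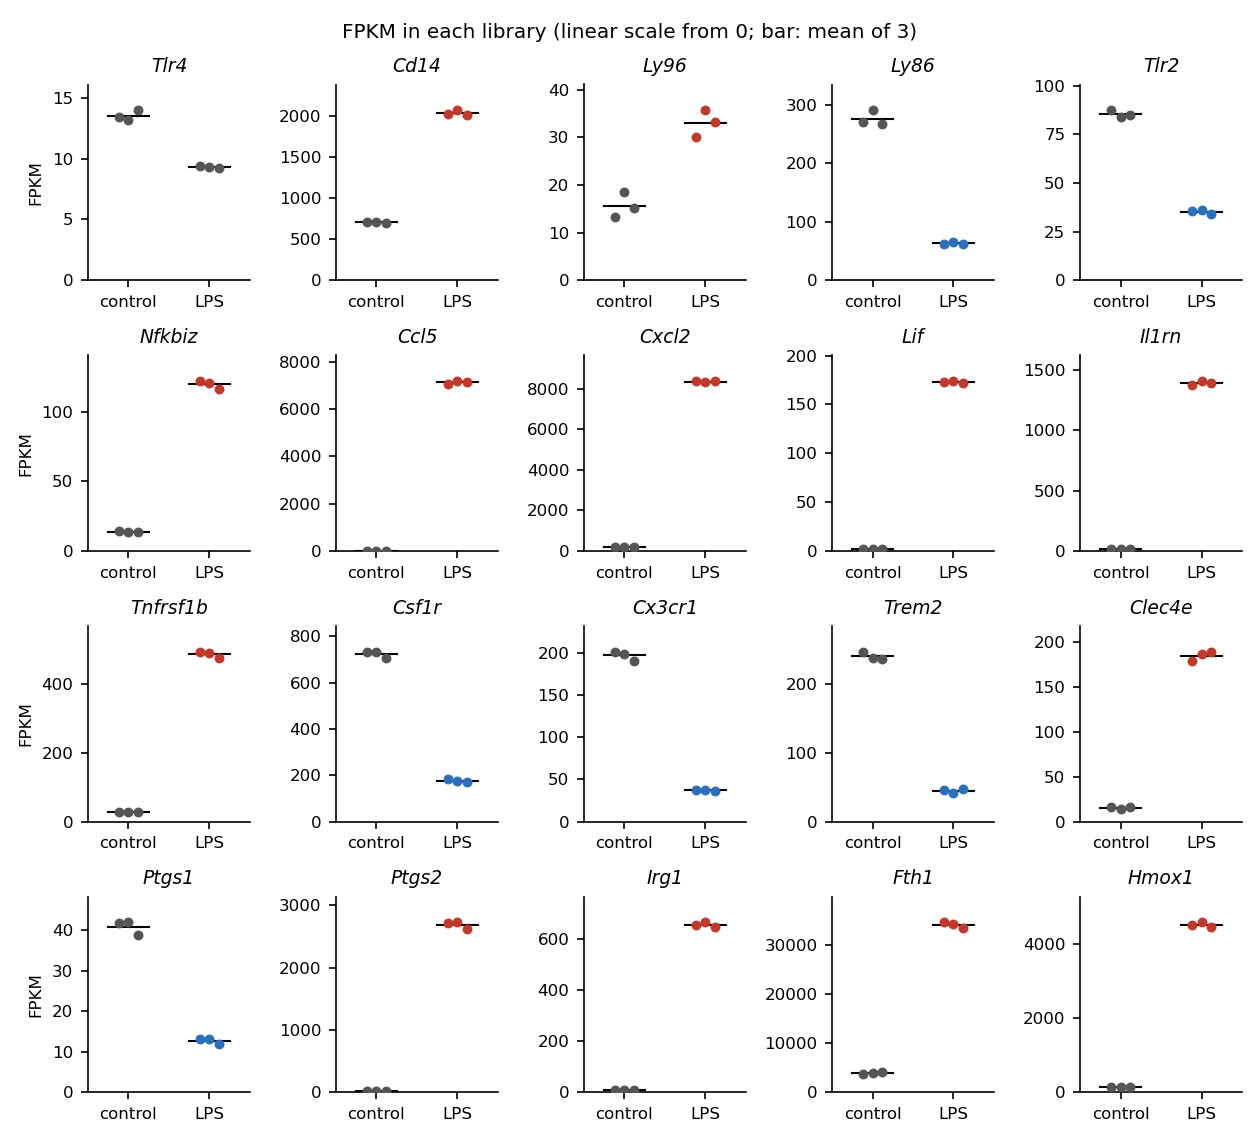
FPKM of 20 genes in each of the 3 control and 3 LPS-treated libraries (points, linear axis from 0), with the group mean as a bar and the LPS-treated points red where upregulated, blue where downregulated and grey where not called. The groups do not overlap in any panel, which was common: LPS-treated libraries lay above all controls in 41.0% of tested genes and below them in 43.0%. The genes shown were picked for the figure, and Tlr4 is the only one of them that was not called.

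Among 20 G protein-coupled and purine receptors 10 were upregulated and 2 downregulated (median 0.96). The prostaglandin E2 receptor Ptger2 rose from 0.211 ± 0.0362 to 11.9 ± 0.182 FPKM (5.28 ± 0.13). Niacr1, the niacin and ketone body receptor, rose to 62.0 ± 0.423 FPKM (4.84 ± 0.058), and the ATP and UTP receptor P2ry2 by 2.45 ± 0.11. Gpr35 rose by 2.10 ± 0.077. Gpr183, which guides immune cells along oxysterols, fell from 33.3 ± 0.352 to 7.42 ± 0.409 FPKM (-2.15 ± 0.048), and the sphingosine-1-phosphate receptor S1pr1 from 9.63 ± 0.671 to 2.17 ± 0.176 FPKM (-2.10 ± 0.087). P2ry6, at 129 ± 3.13 and 83.4 ± 1.55 FPKM, and the complement C5a receptor C5ar1 (-0.73) were not called.

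Phagocytic, scavenger, Fc and lectin receptors split almost evenly, with 9 of 29 tested genes upregulated and 10 downregulated (median -0.01). Trem2, which senses lipids and lipoproteins, measured 248, 239 and 238 FPKM in control and 46.4, 41.3 and 47.5 FPKM with LPS (-2.42 ± 0.054, adjusted p = 3.85e-08). Clec4e (Mincle), which binds mycobacterial glycolipid, moved the opposite way, measuring 15.8, 14.2 and 16.5 FPKM in control and 178, 186 and 189 FPKM with LPS (3.57 ± 0.058), and its neighbour Clec4d by 2.67 ± 0.049. Clec7a (Dectin-1), the beta-glucan receptor, fell from 28.4 ± 2.15 to 9.00 ± 0.827 FPKM. The inhibitory receptors also divided: Lilrb4 rose from 76.9 ± 2.55 to 772 ± 22.5 FPKM (3.33 ± 0.034), while Cd300a (-1.69 ± 0.046) and Clec12a (-1.92 ± 0.064) fell. The scavenger receptor Cd36 rose by 2.41 ± 0.029. The shared signalling subunits Fcer1g (998 ± 43.6 and 1225 ± 27.6 FPKM) and Tyrobp (1137 ± 24.0 and 621 ± 28.4 FPKM) were the most abundant members not called, and Tyrobp was called downregulated under quantile normalization.

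Of 20 feedback inhibitors of cytokine and MAP kinase signalling 9 were upregulated and 2 downregulated (median 1.01). Socs3, which blocks signalling by the interleukin-6 receptor family, rose from 33.0 ± 1.43 to 298 ± 2.47 FPKM (3.17 ± 0.035). Cish, another member of the SOCS family, rose from 0.0405 ± 0.0433 to 17.0 ± 1.43 FPKM. The MAP kinase phosphatases Dusp5 (3.80 ± 0.048) and Dusp4 (2.94 ± 0.053) rose as well. Ptpn6, which encodes the phosphatase SHP-1, fell from 238 ± 7.40 to 87.4 ± 1.99 FPKM (-1.44 ± 0.032), and Zfp36l2, an RNA-binding protein that destabilises transcripts, by 1.21 ± 0.04. Spred1 (-0.56) and Zfp36l1 (-0.68) were not called.

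Transcription factors and JAK kinases of the interferon pathway were upregulated in 5 of 17 tested genes and downregulated in none (median 0.55). Irf7, which amplifies type I interferon, rose from 35.8 ± 2.63 to 278 ± 3.86 FPKM (2.95 ± 0.053). Stat2 rose by 2.51 ± 0.036, the kinase gene Jak2 by 1.86 ± 0.056 and Stat3 by 1.10 ± 0.037. Irf5 (-0.42) and Stat6 (-0.41) were not called. Of the 44 tested interferon-stimulated genes 31 were upregulated and none downregulated (median 1.85). Rsad2, the antiviral enzyme viperin, rose from 1.36 ± 0.246 to 261 ± 4.41 FPKM (7.50 ± 0.12), Isg15 by 5.29 ± 0.043 and Cd274, which encodes PD-L1, by 5.45 ± 0.095. Gbp5, a guanylate-binding protein, rose from 0.0696 ± 0.0177 to 5.23 ± 0.183 FPKM. Samhd1 (-0.24) and Ifi44 (0.34) were not called.

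Of 23 AP-1, C/EBP and other immediate-early factors 11 were upregulated and 2 downregulated (median 0.92). Fosl1, an AP-1 subunit, measured 0.198, 0.391 and 0.418 FPKM in control and 78.5, 75.6 and 74.4 FPKM with LPS (7.49 ± 0.20), while Fos itself was not called (-0.65). Myc rose from 1.01 ± 0.0528 to 13.3 ± 0.471 FPKM (3.59 ± 0.075). Its relative Mycn, named here after its values were seen, was far more abundant and fell, measuring 785, 779 and 798 FPKM in control and 227, 225 and 229 FPKM with LPS (-1.80 ± 0.021). Maff (3.03 ± 0.27) and Ier3 (2.97 ± 0.021) rose, and Egr2 (-1.93 ± 0.058) and Egr3 (-1.81 ± 0.13) fell.

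Of 11 tested factors that set macrophage identity 1 was upregulated and 1 downregulated (9.09% each, median -0.01), close to the shares over all genes for so short a list. Bhlhe40 rose from 25.8 ± 1.04 to 99.2 ± 1.48 FPKM (1.94 ± 0.036). Sfpi1, the older symbol of the master factor PU.1, stood at 387 ± 8.99 and 306 ± 5.40 FPKM and was not called. The other members not called were Nr1h3 (-1.09), Mitf (-0.33), Zeb2 (-0.08), Bach1 (-0.01), Bhlhe41 (0.25), Runx1 (0.38), Id2 (0.39) and Tcfec (0.52).

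For antigen presentation by MHC class I, 7 of 17 tested genes were upregulated and 2 downregulated (median 0.54). The peptide transporter subunits Tap1 (1.82 ± 0.032) and Tap2 (1.23 ± 0.054) and the class I transactivator Nlrc5 (1.77 ± 0.061) rose. The immunoproteasome subunit Psmb10 (-1.38 ± 0.031) and the trimming peptidase Erap1 (-1.20 ± 0.039) fell. B2m, the class I light chain, stood at 1162 ± 53.6 and 1555 ± 96.8 FPKM and was not called. In the list on class II and co-stimulation 3 of 8 tested genes were upregulated and 2 downregulated (median 0.19). The class II genes H2-Aa, H2-Ab1, H2-Eb1 and Ciita had means under 1 FPKM in both groups and were not tested. The co-stimulatory ligands Cd80 (0.869 ± 0.209 to 54.8 ± 1.36 FPKM) and Cd86 (0.826 ± 0.185 to 12.79 ± 0.297 FPKM) rose. Ifi30, a thiol reductase of the class II pathway, fell from 601 ± 8.18 to 194 ± 6.90 FPKM (-1.63 ± 0.031), while Cd74, the invariant chain, differed by -0.04.

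Of 10 tested complement and acute-phase genes 4 were upregulated and 4 downregulated (median 0.37). Saa3, an acute-phase apolipoprotein, measured 0.445, 0.293 and 0.577 FPKM in control and 626, 633 and 709 FPKM with LPS (10.28 ± 0.18, adjusted p = 1.72e-08). The protease inhibitor Slpi rose to 56.5 ± 3.42 FPKM (5.28 ± 0.068) and complement factor B (Cfb) to 29.0 ± 1.62 FPKM (4.42 ± 0.093). The lysozyme genes Lyz2 (4694 ± 85.5 to 1838 ± 45.4 FPKM) and Lyz1 (3322 ± 62.2 to 816 ± 9.54 FPKM) fell, and these 2 near-identical genes may share reads.

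Of 15 tested genes of iron and metal handling 7 were upregulated and 1 downregulated (median 0.92). Fth1, the ferritin heavy chain that stores iron, measured 3776, 3952 and 4104 FPKM in control and 34644, 34214 and 33476 FPKM with LPS (3.11 ± 0.036). The light chain Ftl1 measured 6205, 6103 and 5882 FPKM in control and 24288, 24499 and 24343 FPKM with LPS (2.01 ± 0.028), but under quantile normalization, which gives every library the same distribution, it became 0, since Ftl1 ranked 2nd among all genes in each of the 6 libraries, and the fold change of Fth1 became 1.77. Both ferritin genes have many processed copies in the genome that could share reads. Hmox1, which frees iron from haem, measured 144, 145 and 145 FPKM in control and 4513, 4591 and 4469.6 FPKM with LPS (4.96 ± 0.021). The metal transporter gene Slc11a1 (Nramp1, 2.51 ± 0.037) and the metallothionein gene Mt2 (2.68 ± 0.029) rose. Steap3, a ferric reductase, fell by 1.04 ± 0.049, and lost its call at a pseudocount of 1 (-0.97). Mt1, at 790.3 ± 33.3 and 1497 ± 27.0 FPKM, and Tfrc, the transferrin receptor (0.41), were not called.

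In the list on NADPH oxidase, superoxide and Nrf2 targets 3 of 22 tested genes (13.6%) were upregulated and 5 (22.7%) downregulated (median 0.13). Over all genes the shares were 13.4% and 12.7%. Slc7a11, the cystine importer, rose from 3.21 ± 0.142 to 22.1 ± 0.406 FPKM (2.748 ± 0.051) and the peroxiredoxin gene Prdx5 from 96.6 ± 5.08 to 586 ± 6.502 FPKM (2.60 ± 0.04). Gclc, the catalytic subunit of the first step of glutathione synthesis, fell (-1.48 ± 0.034), as did the oxidase subunit Ncf1 (-1.20 ± 0.028), glutathione reductase (Gsr, -1.07 ± 0.04) and the glutathione peroxidase Gpx1 (-1.06 ± 0.038). Members were called in both directions, and the upregulated share was close to that over all genes. The list mixes oxidase, superoxide and Nrf2 target genes, and Hmox1, Fth1 and Ftl1 were counted in the list on iron. Its share is therefore not one of Nrf2 targets alone.

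Arginine enzymes were upregulated in 8 of 13 tested genes and downregulated in 1 (median 2.70). Nos2, the inducible nitric oxide synthase, measured 2.28, 1.68 and 3.06 FPKM in control and 757, 726 and 720.3 FPKM with LPS (8.27 ± 0.19). Slc7a2, which imports arginine, rose from 0.0589 ± 0.0137 to 16.1 ± 0.511 FPKM (6.67 ± 0.14), while the importer Slc7a1 was not called (0.28). Arg2, the mitochondrial arginase, rose from 0.457 ± 0.185 to 42.2 ± 1.45 FPKM (6.30 ± 0.23), and Arg1, the cytosolic one, reached 2.09 ± 0.350 FPKM. Ass1 (3.08 ± 0.15), which starts the resynthesis of arginine from citrulline, and Gch1 (2.65 ± 0.085), the first enzyme for a cofactor of nitric oxide synthase, rose as well. In the polyamine branch Odc1, the rate-limiting decarboxylase, measured 129, 131 and 131 FPKM in control and 3823, 3820.2 and 3853 FPKM with LPS (4.88 ± 0.019), and Sat1, the first enzyme of polyamine breakdown, rose by 2.70 ± 0.08. Srm, which makes spermidine, went the other way, measuring 219, 213 and 209 FPKM in control and 57.8, 56.4 and 57.5 FPKM with LPS (-1.90 ± 0.027). Sms (-0.30), Oat (-0.64) and Asl (0.89) were not called.

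Of 13 tested prostaglandin and leukotriene genes 2 were upregulated and 5 downregulated (median -0.71). Ptgs2, the inducible cyclooxygenase, went from 15.3, 16.5 and 15.8 FPKM in control to 2709.9, 2727 and 2615 FPKM with LPS (7.39 ± 0.035, adjusted p = 9.65e-11). Ptgs1, the constitutive cyclooxygenase, measured 41.7, 41.9 and 38.7 FPKM in control and 13.1, 13.2 and 11.96 FPKM with LPS (-1.67 ± 0.053). Control cells thus held more of the constitutive gene and LPS-treated cells more of the inducible one. Ptges, the inducible prostaglandin E synthase, rose from 0.318 ± 0.0478 to 21.4 ± 0.854 FPKM (5.69 ± 0.11), while Ptges2 (0.14) and Ptges3 (-0.71) were not called. Hpgd, which inactivates prostaglandins, fell from 4.82 ± 0.551 to 0.825 ± 0.120 FPKM (-2.41 ± 0.15), and Tbxas1, the thromboxane synthase, from 1.86 ± 0.187 to 0.470 ± 0.0693 FPKM. The call of Tbxas1 was lost at a pseudocount of 1 and without control replicate 2 or 3. On the leukotriene side Alox5 fell from 34.3 ± 1.75 to 7.61 ± 0.323 FPKM (-2.16 ± 0.053) and Ltc4s from 68.7 ± 3.84 to 19.6 ± 2.00 FPKM (-1.81 ± 0.08), whereas Alox5ap (-0.81), Lta4h (-0.45), Hpgds (-0.60) and the phospholipase Pla2g4a (0.06) were not called.

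Matrix, proteolysis and adhesion genes were upregulated in 13 of 22 tested and downregulated in 1 (median 1.56). Spp1, the secreted protein osteopontin, measured 1137, 1127 and 1150.4 FPKM in control and 18519.9, 18699 and 18922 FPKM with LPS (4.04 ± 0.022). Mmp9 (5.74 ± 0.16) and its inhibitor Timp1 (6.99 ± 0.36) rose together. Itga4, an integrin chain, fell, measuring 322, 335 and 319 FPKM in control and 68.2, 70.8 and 71.2 FPKM with LPS (-2.21 ± 0.03). The integrin genes Itgb2 (-0.36) and Itgb1 (-0.24) were not called.

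In energy metabolism few steps were upregulated. Of 26 tested glycolysis and glucose entry genes 4 were upregulated and 4 downregulated (median -0.19), close to the shares over all genes. Slc2a1, the glucose transporter GLUT1, measured 155, 164 and 159 FPKM in control and 1248, 1255 and 1226 FPKM with LPS (2.96 ± 0.027, adjusted p = 1.49e-09). Pfkfb3, which makes an activator of phosphofructokinase, rose from 14.2 ± 0.311 to 94.6 ± 1.39 FPKM (2.72 ± 0.03), and the enolase and aldolase forms Eno2 (2.78 ± 0.031) and Aldoc (2.54 ± 0.28) rose too. The bulk of the enzymes stayed uncalled, Gapdh at 5016 ± 197 and 7861 ± 42.7 FPKM and Aldoa at 3190.0 ± 37.7 and 3463 ± 20.1 FPKM being the most abundant. Among the genes that fell were Pdk1 (-1.48 ± 0.031), a kinase that inhibits pyruvate dehydrogenase, the liver-type phosphofructokinase Pfkl (-1.24 ± 0.041), the transporter Slc2a6 (-1.22 ± 0.03) and the lactate transporter Slc16a1 (-1.17 ± 0.047).

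The pentose phosphate pathway, which yields NADPH and ribose, had 4 of 9 tested genes downregulated and none upregulated (median -0.81). Pgd (222 ± 3.06 to 93.3 ± 4.89 FPKM, -1.25 ± 0.04), Tkt (328 ± 2.63 to 156 ± 0.442 FPKM, -1.07 ± 0.02), Rpia (-1.27 ± 0.081) and H6pd (-1.04 ± 0.052) fell, the last without a call at a pseudocount of 1 (-0.94). Pgls (-0.81) and Taldo1 (-0.68) were not called.

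In pyruvate oxidation and the tricarboxylic acid cycle 6 of 27 tested genes were downregulated and 1 upregulated (median -0.43), and in 24 of the 27 every LPS-treated library lay below every control, as in 43.0% of all tested genes. The gene upregulated was Irg1, the enzyme that diverts aconitate to itaconate, at 10.7, 10.3 and 10.7 FPKM in control and 653, 664 and 647 FPKM with LPS (5.94 ± 0.028). Idh2, the mitochondrial isocitrate dehydrogenase just downstream of that branch, fell, measuring 149, 149 and 147 FPKM in control and 44.8, 47.6 and 46.9 FPKM with LPS (-1.67 ± 0.03). Idh3a (-1.36 ± 0.043), Suclg2 (-1.34 ± 0.054) and the cytosolic Idh1 (-1.30 ± 0.03) fell as well. Mdh2 (456 ± 6.25 and 418 ± 6.52 FPKM) and Cs (239.8 ± 3.09 and 192 ± 1.32 FPKM) were not called.

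The nuclear genes of the respiratory chain were mostly lower in LPS-treated cells, by small amounts. None of 72 tested genes was upregulated and 5 (6.94%) were downregulated, which is below the share over all genes. In 64 of the 72 every LPS-treated library lay below every control, as in 43.0% of all tested genes, and the median of -0.54 lay above the lower quartile of all tested genes (-0.62). Uqcr11, a subunit of complex III, fell from 311 ± 5.93 to 112 ± 11.7 FPKM (-1.49 ± 0.07), and the ATP synthase subunits Atp5g1 (-1.31 ± 0.024) and Atp5g3 (-1.07 ± 0.046) fell by less. Ndufs8, of complex I, lay at the threshold (-1.02 ± 0.11) and lost its call without control replicate 1 (-0.94), without LPS replicate 1 (-0.91) and under median-ratio scaling (-0.999). Cox8a (-0.29) and Atp5b (-0.55) were not called.

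**Figure D4:**
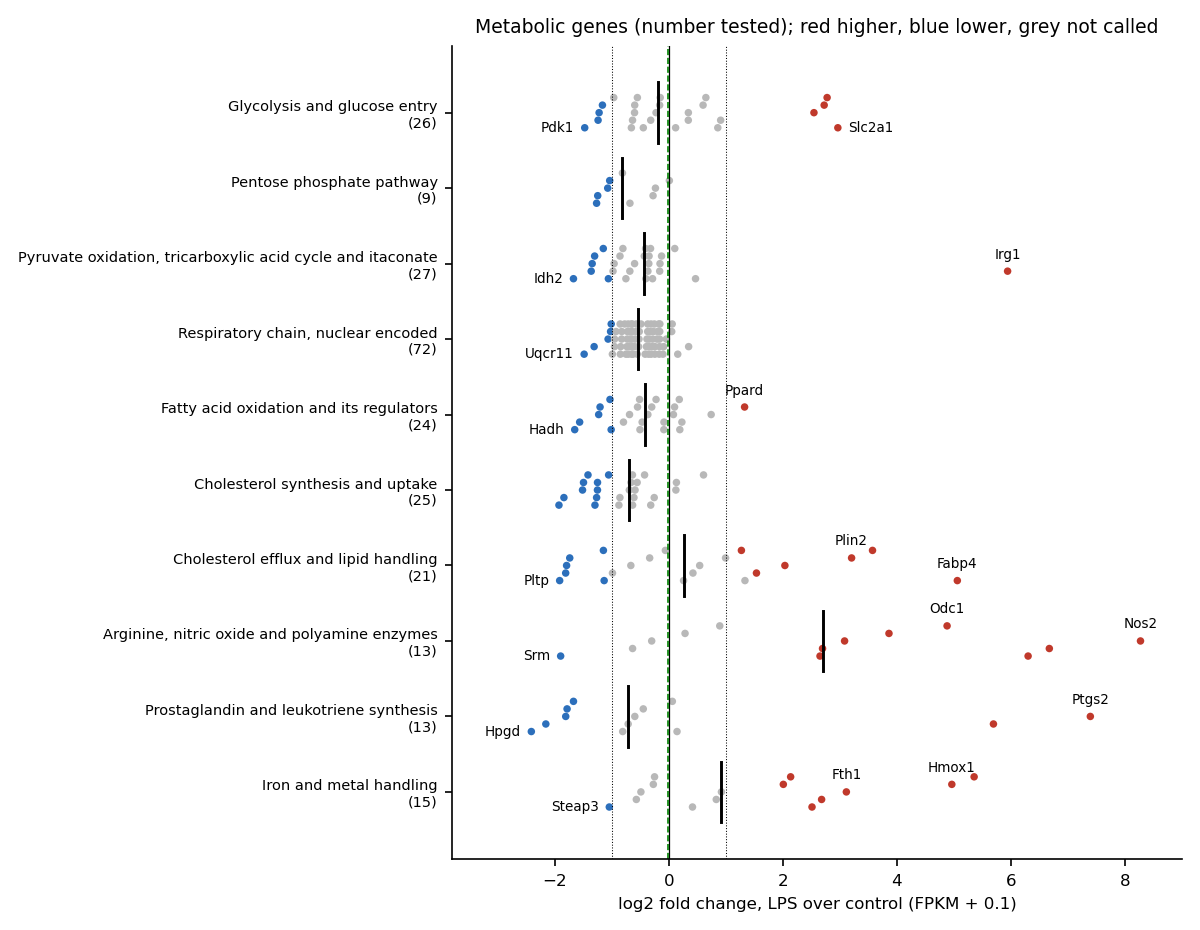
Log2 fold change (LPS-treated over control, FPKM + 0.1) of each tested gene in 10 metabolic lists, with the number tested in brackets, upregulated genes in red, downregulated in blue, genes not called in grey, the list's median as a black bar, dotted lines at 1 and -1, and the median over all genes as a green dashed line. The respiratory chain and cholesterol synthesis lists lie mostly to the left of 0, and Irg1 stands alone on the right of the tricarboxylic acid cycle list.

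Of 24 tested fatty acid oxidation genes 6 were downregulated and 1 upregulated (median -0.42). Hadh (-1.65 ± 0.054), the thiolase genes Acaa1a (-1.56 ± 0.037) and Acaa2 (-1.21 ± 0.045), and Cpt1a (-1.23 ± 0.04), which admits fatty acids to mitochondria, fell. Ppard, a nuclear receptor that activates such genes, rose from 23.6 ± 0.435 to 59.5 ± 3.43 FPKM (1.33 ± 0.046). Hadha (-0.37) and Acadl (0.74) were not called.

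Cholesterol synthesis and uptake genes were downregulated in 10 of 25 tested and upregulated in none (median -0.69). Acat2, an early enzyme of the pathway, fell, measuring 25.05, 27.5 and 24.8 FPKM in control and 7.17, 7.32 and 6.88 FPKM with LPS (-1.84 ± 0.053). Idi1 (-1.497 ± 0.035), of the isoprenoid steps, fell too. Hmgcs1 (-1.51 ± 0.24) was downregulated, but varied enough within groups that leaving out any 1 control replicate, or LPS replicate 1 or 2, ended the call (adjusted p of limma 0.00102 to 0.00356). Srebf2, the factor that drives the pathway, went from 100.02 ± 2.88 to 64.3 ± 1.89 FPKM (-0.64) and was not called, and neither was the methylsterol oxidase gene Sc4mol (-0.32).

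The list on cholesterol efflux and lipid handling split, with 6 of 21 tested genes upregulated and 6 downregulated (median 0.26). Genes of lipid droplets and fatty acid binding rose: Plin2, which coats droplets, measured 108, 111 and 108 FPKM in control and 999, 1017 and 1000.3 FPKM with LPS (3.20 ± 0.022), and Fabp4 from 2.00 ± 0.311 to 69.5 ± 5.73 FPKM (5.06 ± 0.12). Abca1, the cholesterol exporter, rose by 2.04 ± 0.074. Genes of fatty acid synthesis fell, Fasn from 66.2 ± 1.87 to 18.8 ± 0.527 FPKM (-1.81 ± 0.036) and Scd1 from 52.98 ± 1.31 to 15.8 ± 0.590 FPKM (-1.74 ± 0.039). The lipoprotein genes Lpl (293 ± 6.98 to 84.5 ± 0.421 FPKM) and Pltp (42.7 ± 0.765 to 11.2 ± 0.375 FPKM) fell too. Soat1 (0.42) and Pnpla2 (0.26) were not called.

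Genes of cell division had the highest shares of downregulated members among the 37 lists. Of 54 tested mitosis genes 47 (87.0%) were downregulated and none upregulated, against 12.7% downregulated over all genes, and in all 54, against 43.0% of all tested genes, every LPS-treated library lay below every control (median -2.06). Ube2c, a ubiquitin-conjugating enzyme of the anaphase-promoting complex and the most abundant of them, is named after its values were seen, and measured 305, 305 and 299 FPKM in control and 61.0, 65.8 and 61.8 FPKM with LPS (-2.27 ± 0.033). Ccna2, cyclin A2, measured 86.5, 88.8 and 83.0 FPKM in control and 15.0, 17.0 and 15.2 FPKM with LPS (-2.45 ± 0.055, adjusted p = 3.89e-08). Ccnb2 (-2.44 ± 0.036), Cdc20 (-2.41 ± 0.034), which activates the anaphase-promoting complex, and the kinesin Kif2c (-2.40 ± 0.083) fell by closely similar amounts. Cdc25b (-0.69) and Smc4 (-0.64) were the most abundant genes not called.

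DNA replication genes were downregulated in 37 of 48 tested (77.1%) and upregulated in none (median -1.80). Mcm6, a subunit of the replicative helicase, measured 78.8, 79.5 and 81.3 FPKM in control and 15.9, 15.1 and 15.2 FPKM with LPS (-2.37 ± 0.033). Mcm10 (-2.44 ± 0.10), the polymerase subunit Pole (-2.39 ± 0.061) and thymidine kinase Tk1 (-2.39 ± 0.04) fell by about as much. Pcna, the sliding clamp, went from 268 ± 11.8 to 139 ± 5.39 FPKM and missed the threshold (-0.95), and Cdt1, which licenses origins, differed by -0.32.

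Among 16 regulators of G1 and S phase 8 were downregulated and 1 upregulated (median -1.27). E2f8 (-2.45 ± 0.10), Mybl2 (-2.34 ± 0.051) and Rbl1 (-1.45 ± 0.065) fell. Ccnd1, cyclin D1, measured 97.2, 99.9 and 97.7 FPKM in control and 38.5, 37.8 and 37.0 FPKM with LPS (-1.38 ± 0.027), while Ccnd2, cyclin D2, named here after its value was seen, rose from 0.532 ± 0.0739 to 1.62 ± 0.189 FPKM and lost its call whichever replicate was left out. Cdk4 (-0.89) and Ccnd3 (-0.28) were not called. DNA repair genes were downregulated in 20 of 26 tested and upregulated in none (median -1.63). Rad54l (-2.39 ± 0.057), of homologous recombination, and Fancd2 (-2.18 ± 0.082) and Fanci (-2.17 ± 0.092), of crosslink repair, fell. Msh6 (-0.94) and Blm (-0.30) were not called.

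Cell-cycle inhibitors and p53 targets ran the other way, with 8 of 21 tested genes upregulated and 2 downregulated (median 0.82). Cdkn1a, which encodes the kinase inhibitor p21, measured 119.7, 123 and 119 FPKM in control and 555, 564 and 553 FPKM with LPS (2.21 ± 0.023, adjusted p = 2.14e-09). The stress genes Gadd45b (4.04 ± 0.052) and Gadd45a (3.71 ± 0.046) rose, and Mdm2, the ligase that degrades p53, rose from 25.6 ± 0.414 to 194 ± 0.379 FPKM (2.92 ± 0.024). Sesn1 (-1.51 ± 0.062) and Btg2 (-1.09 ± 0.035) fell although both are known p53 targets. Trp53 itself was not called (-0.81), nor was Ccng1 (0.82).

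**Figure D5:**
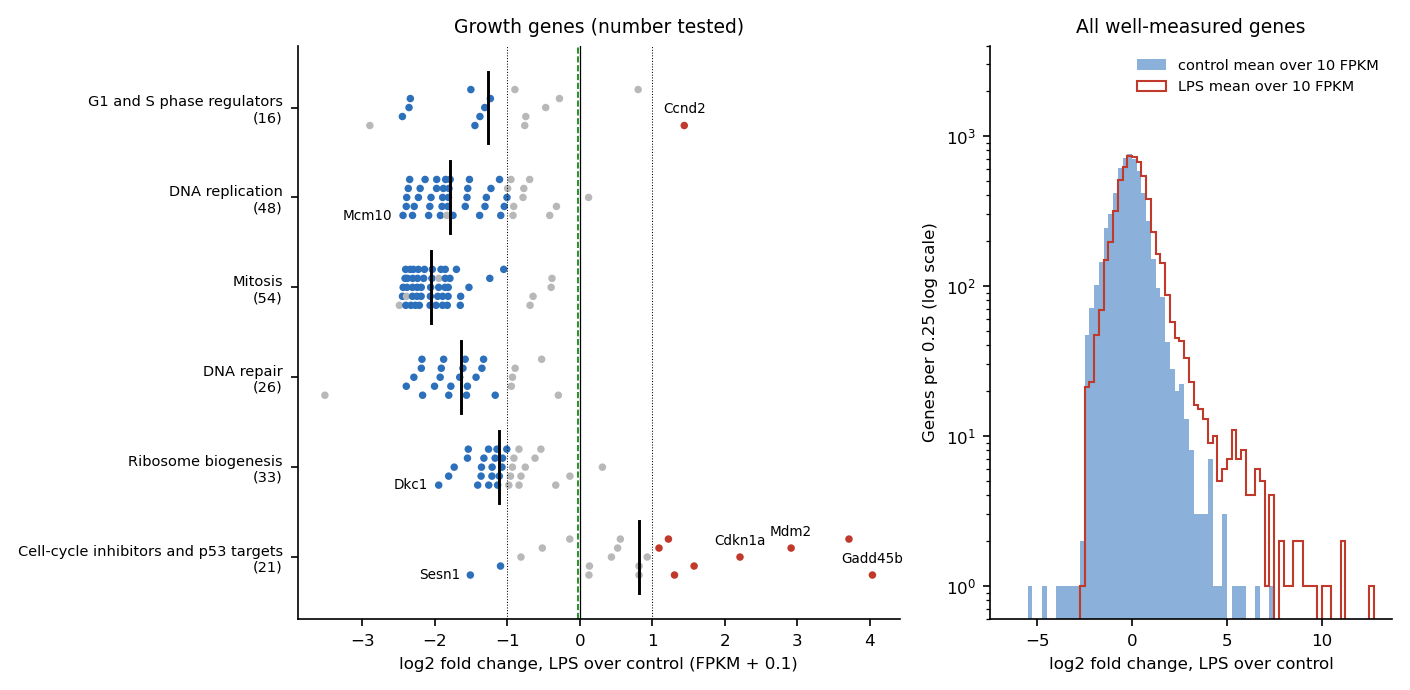
Left, log2 fold change (LPS-treated over control, FPKM + 0.1) of each tested gene in 6 lists on growth and division, with the number tested in brackets, the median as a black bar and colours by call. Right, the number of genes per 0.25 of log2 fold change (log scale) among those over 10 FPKM in control (filled) and with LPS (line). Nearly all downregulated genes stop short of -2.5 while increases run past 10.

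Decreases had a steep lower edge. Of 5883 genes with a control mean over 10 FPKM, 71 had a log2 fold change between -2.25 and -2, 47 between -2.5 and -2.25, 2 between -2.75 and -2.5, 1 between -3 and -2.75, and 6 below -3. On the side of increases, of 5941 genes with an LPS mean over 10 FPKM, 57 lay between 2 and 2.25, 45 between 2.25 and 2.5, 43 between 2.5 and 2.75, 33 between 2.75 and 3, and 170 beyond 3. The edge was shared by genes of unlike function, among them Ccna2 (-2.45), Mcm10 (-2.44), Trem2 (-2.42) and Cx3cr1 (-2.40). What sets this edge was not tested, and the decreases near -2.4 given here for single genes lie at it. Of the genes over 10 FPKM in control that lay beyond it, Srsf3 and, chosen after its value was seen, Troap (-2.54 ± 0.077) were called. The others of that set were not. The 6 downregulated genes below -3 given earlier were counted over all tested genes, without that floor. Srsf3, a splicing factor gene, measured 70.3, 64.7 and 69.7 FPKM in control and 7.71, 10.6 and 8.13 FPKM with LPS (-2.95 ± 0.12).

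Ribosome biogenesis genes were downregulated in 20 of 33 tested and upregulated in none (median -1.11). Dkc1 (-1.95 ± 0.094), Nop10 (-1.81 ± 0.075) and Gar1 (-1.55 ± 0.075), members of the complex that modifies ribosomal RNA and holds telomerase RNA, fell, as did the nucleolar phosphoprotein gene Nolc1 (-1.73 ± 0.06). Npm1, at 896 ± 56.8 and 815 ± 18.6 FPKM, and Ncl (-0.98) were not called. Ncl lay at the threshold and was called downregulated under quantile normalization (-1.02) and without control replicate 1 (-1.04) or LPS replicate 1 (-1.01).

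The unfolded protein and amino acid response was upregulated in 13 of 31 tested genes and downregulated in 2 (median 0.81). Hspa5, the main chaperone of the endoplasmic reticulum, measured 352, 368 and 375 FPKM in control and 2615, 2573 and 2631 FPKM with LPS (2.83 ± 0.029). Ddit3 (CHOP) rose from 17.3 ± 1.53 to 183 ± 7.97 FPKM (3.39 ± 0.066), Trib3 by 2.90 ± 0.06 and Ppp1r15a, which reverses the block on translation, by 2.68 ± 0.024. Xbp1, a factor of the same response, fell from 153 ± 3.89 to 62.5 ± 2.95 FPKM (-1.29 ± 0.04), and the serine enzyme gene Shmt2 fell by 1.48 ± 0.029. The chaperone genes Calr (0.31) and Hsp90b1 (0.67) were not called.

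Of 35 tested lysosome and cathepsin genes 9 were upregulated and 1 downregulated (median 0.38). Ctsl rose from 98.8 ± 5.46 to 463 ± 6.15 FPKM (2.23 ± 0.041), and the cholesterol exporters of the lysosome Npc1 (1.81 ± 0.033) and Npc2 (1.52 ± 0.023) both rose. Man2b1, an alpha-mannosidase, fell (-1.64 ± 0.027). Laptm5 (-0.86) and Ctsb (0.62) were not called. In the list on apoptosis, inflammasome and necroptosis 9 of 29 tested genes were upregulated and none downregulated (median 0.62). The survival gene Bcl2a1a rose to 23.6 ± 2.14 FPKM (5.81 ± 0.15), though it has near-identical copies that could share its reads. Casp4, the caspase that binds cytosolic LPS, rose from 6.503 ± 0.713 to 36.7 ± 1.93 FPKM (2.48 ± 0.086) and Mlkl, which carries out necroptosis, by 2.32 ± 0.11. Bcl2l1 rose by 2.11 ± 0.32, but its call was lost when control replicate 2 (adjusted p of limma 0.00203), LPS replicate 1 (0.00325) or LPS replicate 2 (0.00307) was left out. Bax (-0.07) and Bak1 (-0.03) were not called.

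Some abundant transcripts outside the lists also changed. Sqstm1, the autophagy receptor p62, measured 186, 183 and 195 FPKM in control and 3278, 3223 and 3278 FPKM with LPS (4.12 ± 0.028). Pgf, a growth factor of the VEGF family, measured 0, 0.105 and 0 FPKM in control and 60.2, 58.8 and 58.9 FPKM with LPS (8.87 ± 0.28). Among decreases Cst3, the protease inhibitor cystatin C, measured 3203, 3244 and 3233 FPKM in control and 885, 906 and 903 FPKM with LPS (-1.84 ± 0.021) and the calcium-binding protein gene S100a4 from 2375 ± 32.8 to 604 ± 59.97 FPKM (-1.98 ± 0.067). Ptma (2331 ± 58.9 to 668 ± 10.5 FPKM) and the mitochondrial carrier gene Ucp2 (1345 ± 62.3 to 434 ± 13.6 FPKM) fell likewise. The sodium pump regulator gene Fxyd2 (3937 ± 101.02 to 1379.7 ± 103 FPKM), the tubulin gene Tuba1b (1239 ± 30.1 to 505 ± 8.30 FPKM), the translation factor gene Eif5a (1485 ± 23.2 to 669 ± 12.1 FPKM) and Ppia (3214 ± 125 to 1475 ± 54.7 FPKM), often used as a reference gene, also fell. Telomerase RNA, Terc, went from 3.30 ± 0.877 to 0.386 ± 0.155 FPKM (-2.82 ± 0.30), and Pram1 from 5.68 ± 0.567 to 0.741 ± 0.0926 FPKM (-2.78 ± 0.13). Of the largest decreases by fold change, the microRNA entry Mir18 was listed at 0 in all LPS-treated libraries and at 2.63, 4.61 and 9.06 FPKM in control, which came to an average of only 3.80 reads. Maz and Pif1 lost their calls when single libraries were left out, as did some genes given above with that limit. Their values are not given, but both remain in the counts of downregulated genes.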

How the data were processed

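RNA was sequenced from cultured cells, and the authors deposited FPKM values per gene, made with kallisto and tximport on a mouse annotation whose build the processing notes give as mm9. No count table was used, so the test was limma 3.58.1 in R 4.3.3 on log2(FPKM + 0.1), with a mean-variance trend, over the 3 control and 3 LPS libraries. Genes with a mean over 1 FPKM were tested, and Benjamini-Hochberg adjusted p under 0.001 with a log2 fold change beyond 1 made a call. The base means deposited by the authors from DESeq2, a read signal averaged over libraries after size-factor scaling, served only to estimate reads per library, since low values move in whole reads (90.6% to 93.7% of them within 0.05 of a read). The fold changes and p-values in that table were not used. The median squared difference between libraries of a group was 1.91 to 2.67 times that from sampling alone. None was therefore an exact copy of another. The ratio cannot tell separate cultures from repeat libraries of 1 culture. The code was tested on simulated data.

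The genes were placed in 37 hand-written lists (1039 genes, 906 tested). These lists and the comparison were chosen with earlier results of these data known. Named were the 10 largest and the 10 most abundant changes in each direction, up to 4 increases and 4 decreases over 5 FPKM and the 2 most abundant uncalled genes of each list, and all genes of 6 lists, except that some of these genes are not reported here. Promoters were not searched, as no sequence was used here.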

Additional observations from a re-analysis of the deposited data

How the results depend on the processing

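The counts of upregulated and downregulated genes stayed within 1.5 times those reported under all 16 alternatives. Upregulated genes numbered 1018 (mean FPKM over 5) to 1543 (no filter on the mean), and downregulated genes 981 to 1368, the latter under quantile normalization. They were 1198 and 1082 at a pseudocount of 1, 1344 and 1273 at 0.01, 1368 and 1214 under median-ratio scaling, and 1114 and 1074 with all 9 cell libraries in the fit. Leaving out 1 library gave 1271 to 1338 upregulated and 1162 to 1270 downregulated genes. With the replicate number as a block they were 1266 and 1172, but the numbers do not pair the samples: deviations from the group means of same-numbered libraries correlated at 0.037, -0.072 and -0.064. Of 5036 values recomputed for the 338 genes named by rule, called or not, 90 lost the call, 12 gained it and none reversed. Ftl1 lost it under quantile normalization, where its fold change was 0. Of the 12 gained calls 8 came under quantile normalization, among them Cdk4, Cxcr3, Laptm5, Ncl, Pcna, Pgls and Tyrobp. Tlr6 gained a call without LPS replicate 2. Of 1184 list counts, 52 moved by over 1.5 times, 16 of them with the 9 libraries in the fit. The cause was not tested. The limits are that separate cultures are not stated, that 3 libraries against 3 cannot go below p = 0.1 in an exact permutation test, and that the estimated depth of 18342755 to 18857725 reads per library leaves genes of a few reads uncertain.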

Other observations

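Some genes were well read in one group and listed at exactly 0 in the other. Of 8960 tested genes with at least 100 estimated reads per control library, 2 were listed at 0 in all 3 LPS-treated libraries and 29 in 1 or 2 of them. These 2 were Ssbp4, with an estimated 226 reads per control library, and Fastkd3, with 310.0. In the other direction, of 8841 genes with at least 100 reads per LPS-treated library, 8 were listed at 0 in every control library and 30 in 1 or 2 of them. Ndel1, a gene of the dynein machinery, was 1 of the 8, at 30.2, 29.2 and 29.1 FPKM with LPS.

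A few genes varied far more among the LPS-treated libraries than among the controls. Sgta, a co-chaperone, measured 14.6, 16.0 and 12.84 FPKM in control and 0, 0 and 3.83 FPKM with LPS. Ppp3cb, a calcineurin subunit, measured 13.4, 12.4 and 12.1 FPKM in control and 0, 2.46 and 1.91 FPKM with LPS, and Pdlim2 measured 31.2, 33.2 and 30.5 FPKM in control and 13.4, 7.58 and 0.134 FPKM with LPS. None of these was called, and all were named after their values were seen.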
